A study of Mus musculus with 25 samples.

Results

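The 8 Gimap genes measured here (Gimap1, Gimap3, Gimap4, Gimap5, Gimap6, Gimap7, Gimap8 and Gimap9) were taken by symbol from a table of 23366 gene symbols in 25 bulk RNA-seq libraries of CD8+ T cells isolated from B16F10 tumours, a transplanted mouse melanoma. All 8 passed the filter on low values, which left 12251 genes for testing. The libraries came from C57BL/6 mice of 4 genotypes: 3 libraries of Prdm1/c-Maf cDKO, which lack both transcription factors, 3 of Prdm1 cKO, 3 of c-Maf cKO and 16 of wild type (WT). A cKO is a conditional knockout and a cDKO a conditional double knockout; which line or promoter drives the deletion, how old the animals were and how many were used could not be read from the labels. Each library started from 5 uL of lysate of a small bulk, in which about 2000 cells were lysed on average, and was made by an adapted SMART-Seq 2 method. Values are the authors' normalised signal, whose scale is not stated. They were treated as length-scaled units, and whether they scale with transcript length was not tested. P-values measure the spread between libraries, because the labels do not say whether libraries come from separate mice.

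GIMAP proteins, the GTPases of immunity-associated proteins, share a GTP-binding domain of the AIG1 type and are made mainly by lymphocytes, where they are known for the survival of resting T cells. Mice and rats without working Gimap5 lose peripheral T cells, and mice without Gimap1 in T cells lose mature T cells. Blimp-1, the product of Prdm1, represses genes of resting lymphocytes during effector differentiation, and c-Maf, the product of Maf, is a bZIP factor induced by activation and cytokines.

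Prdm1 signal averaged 3.05 ± 1.77 in Prdm1/c-Maf cDKO libraries, 2.93 ± 2.24 in Prdm1 cKO libraries and 17.01 ± 3.002 in c-Maf cKO libraries, against 15.5 ± 5.31 in WT libraries (SD, n = 3, 3, 3 and 16). Both drops gave an exact two-sided permutation p of 0.00103, the smallest that 969 splits allow. Maf was low everywhere and did not check the c-Maf label: it averaged 0.07 in cDKO libraries, 0.833 in Prdm1 cKO libraries and 0.31 in c-Maf cKO libraries, where library C1 stood at 0.93, against 0.462 in WT (exact p = 0.0289, 0.1001 and 0.367). Libraries carry the code of their column, such as C1. The columns of the table fall into 3 runs, called column sets here, each made of WT libraries followed by 1 knockout genotype: set 1 holds 7 WT and the 3 Prdm1 cKO libraries, set 2 holds 4 WT and the 3 c-Maf cKO libraries, and set 3 holds 5 WT and the 3 cDKO libraries. Within WT, 337 genes (2.75% of those tested) differed between the column sets by limma's F test at a Benjamini-Hochberg adjusted p under 0.05. Each comparison of a knockout group with WT is therefore also given within its column set. None of the 8 Gimap genes was among them, and their lowest adjusted p was 0.134 (Gimap3). An unadjusted p of the F test under 0.05 was reached by 3 of the 8 (Gimap3, Gimap7 and Gimap8). The share of all genes at that unadjusted threshold was not computed.

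Markers of CD8 T cells were present in every group, with 7 of the 8 listed markers in the table and none of them at 0 throughout a group. Their summed signal ran from 1228 to 2268 in cDKO, 1289 to 1622 in Prdm1 cKO and 2251 to 2417 in c-Maf cKO, against 1041 to 2938 in WT libraries. The mean of Cd3d, Cd3e and Cd3g, which encode chains of the T cell receptor complex, ran from 7.67 to 8.63 on the log2 scale in cDKO, 7.84 to 8.18 in Prdm1 cKO and 8.66 to 8.81 in c-Maf cKO, against 7.52 to 8.997 in WT. The summed signal of 14 macrophage and monocyte markers ran from 621 to 1262 in cDKO, 1669 to 4834 in Prdm1 cKO and 798 to 2074 in c-Maf cKO, against 553 to 2955 in WT. The 14 include Ly6c2, which averaged 682 in WT libraries, where the median of the sum was 1097. Across WT libraries Ly6c2 had r = 0.84 with the mean log2 signal of the 8 Gimap genes. The sum is therefore not a measure of macrophages and monocytes alone. In a bulk library, a lower share of T cells and less RNA of a gene per T cell cannot be told apart. Of the other marker lists, the erythroid sum reached 4236 in cDKO, 1840 in Prdm1 cKO, 133 in c-Maf cKO and 1567 in WT, and the dendritic cell sum reached 250 in cDKO, 4673 in Prdm1 cKO, 988 in c-Maf cKO and 1863 in WT. Melanoma marker sums lay between 148 and 2050 in cDKO, 885 and 1926 in Prdm1 cKO and 22.2 and 861 in c-Maf cKO, against 7.63 and 4403 in WT; the highest sums of the 5 remaining lists (CD4 and regulatory T, B, NK and neutrophil, and fibroblast and endothelium) did not exceed 148. Some markers were at 0 in every library of a group: Pax5, Clec9a and Pdgfra in cDKO, Cd4 and Clec9a in Prdm1 cKO, and Ms4a1, Pax5, Ncr1, Hba-a2, Col1a2, Col3a1 and Kdr in c-Maf cKO. The part of these markers in the results was not tested beyond a fit with marker scores as covariates, whose values are given with the calls.

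The 8 genes lie together on mouse chromosome 6, in the order Gimap8, Gimap9, Gimap4, Gimap6, Gimap7, Gimap1, Gimap5, Gimap3 by the RefSeq annotation of GRCm38.p6. Gimap6 and Gimap3 are on the minus strand and the other 6 on the plus strand. The 250 bases before the start are shown for 4 of them. Gimap6 and Gimap3 were higher in cDKO libraries, Gimap7 was lower in Prdm1 cKO libraries, and Gimap5 is the gene next to Gimap3, sharing sequence with it, that was not called. Sequences are from RefSeq (GRCm38.p6), 5′ to 3′ on the gene's own strand, and capitals mark the searched motifs. The windows are chr6:48708245-48708494 (minus strand) for Gimap6, chr6:48770852-48771101 (minus strand) for Gimap3, chr6:48718371-48718620 (plus strand) for Gimap7 and chr6:48745947-48746196 (plus strand) for Gimap5.
Gimap6: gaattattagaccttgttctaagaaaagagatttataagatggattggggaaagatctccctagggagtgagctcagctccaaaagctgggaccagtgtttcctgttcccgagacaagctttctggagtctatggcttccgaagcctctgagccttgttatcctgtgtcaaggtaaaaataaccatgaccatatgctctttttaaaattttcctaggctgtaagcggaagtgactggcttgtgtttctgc
Gimap3: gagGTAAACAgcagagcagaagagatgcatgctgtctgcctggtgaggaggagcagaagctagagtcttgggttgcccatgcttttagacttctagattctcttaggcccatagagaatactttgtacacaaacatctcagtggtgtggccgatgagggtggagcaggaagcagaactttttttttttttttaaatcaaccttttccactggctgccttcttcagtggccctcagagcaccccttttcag
Gimap7: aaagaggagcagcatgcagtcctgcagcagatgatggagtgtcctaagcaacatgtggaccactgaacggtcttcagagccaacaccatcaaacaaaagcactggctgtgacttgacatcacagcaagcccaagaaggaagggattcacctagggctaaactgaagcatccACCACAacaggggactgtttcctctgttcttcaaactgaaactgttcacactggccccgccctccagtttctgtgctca
Gimap5: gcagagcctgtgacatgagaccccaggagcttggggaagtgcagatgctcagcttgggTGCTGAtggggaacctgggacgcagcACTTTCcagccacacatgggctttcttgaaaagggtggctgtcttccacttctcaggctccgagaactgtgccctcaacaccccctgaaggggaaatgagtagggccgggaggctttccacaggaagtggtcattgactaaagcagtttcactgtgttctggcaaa

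In all, 6 short motifs were searched on both strands in the 9 such windows of the 8 genes (Gimap8 has 2 starts) and in all 32851 windows of the RefSeq table. GAAAGT, the core of Blimp-1 sites, was in 2 of the 9 windows (Gimap9 and Gimap5) and in 12.3% of all windows. TGCTGA, a short recognition element of Maf proteins, was in the same 2 windows and in 16.1% of all. TGTGGT, the core bound by Runx factors, was in 3 (Gimap4, Gimap7 and Gimap1) against 14.045% of all, and GTAAACA, bound by Foxo factors, was in 1 (Gimap3) against 3.17%. CTTTGA of Tcf and Lef factors (13.8% of all) and CCGGAAG of Ets factors (6.91%) were in 0 of the 9. The Gimap6 window held none of the 6 motifs, the Gimap3 window the Foxo letters at -247 from the start, the Gimap7 window the Runx letters at -79, and the Gimap5 window the Blimp-1 letters at -166 and the Maf letters at -192. No matches overlapped each other. These are matches of letters and not measured sites.

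Among WT libraries the family spanned a wide range of levels. The mean signal was 235 ± 81.3 for Gimap4, a member linked to T cell death, 188 ± 49.9 for Gimap6, linked to autophagy, 142 ± 41.0 for Gimap3, a rodent neighbour and close relative of Gimap5, and 105 ± 32.2 for Gimap1 (SD, n = 16). It was 82.9 ± 38.4 for Gimap7, 37.4 ± 10.2 for Gimap5, 27.1 ± 8.69 for Gimap9 and 15.99 ± 4.43 for Gimap8, which carries several GTPase domains in its protein. These means placed the 8 genes between percentile 71.4 (Gimap8) and percentile 98.1 (Gimap4) of the genes tested, whose median was 6.71. The order held library by library for some neighbours and not for others: Gimap4 was above Gimap3 and Gimap7 above Gimap5 in 16 of 16 WT libraries, whereas Gimap6 was above Gimap4 in 5 of 16. Gimap8 was lowest in all 25 libraries. In c-Maf cKO libraries the order of the 8 genes was the same in all 3 and equal to that of the WT means. In cDKO libraries Gimap6 was above Gimap4 in 3 of 3 and Gimap9 above Gimap5 in 3 of 3, while Gimap5 was above Gimap9 in 15 of 16 WT libraries.

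**Figure D1:**
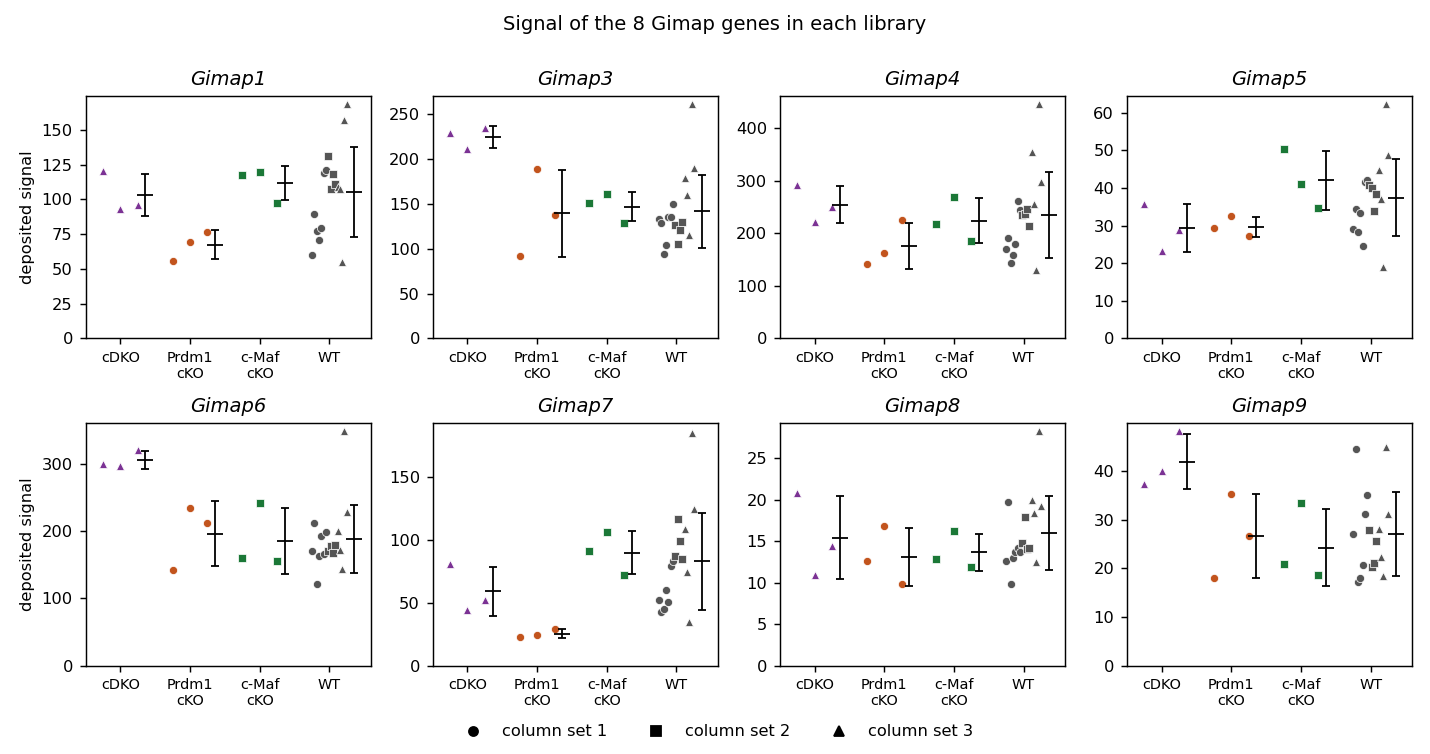
Signal of each Gimap gene (y axis, the authors' normalised signal, from 0) in every library by genotype (x axis); each point is a library, its shape gives the column set, and the bar is the mean with its SD. Gimap3 and Gimap6 are high in all 3 cDKO libraries, with 1 WT library above them, and Gimap7 is lower in the 3 Prdm1 cKO libraries than in any other library.

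In Prdm1/c-Maf cDKO against WT libraries, Gimap3 and Gimap6 rose, each by about 0.7 on the log2 scale, while the other 6 members were not called. Gimap6 stood at 300, 297 and 321 in the cDKO libraries C2, A1 and A2, against 121, 175 and 349 (lowest, median and highest) in WT libraries. Gimap3 stood at 229, 211 and 234 in the same cDKO libraries, against 94.3, 131 and 261 in WT libraries. For both genes, 15 of 16 WT libraries were below every cDKO library and the WT library B4 was above them. The share of all genes with such counts was not computed, for these genes or for the other members. The log2 fold change was 0.73 ± 0.19 for Gimap6 (limma, adjusted p = 0.0116) and 0.71 ± 0.21 for Gimap3 (adjusted p = 0.0250), with errors as SE. The 2 of 8 members called, both higher, stand beside 11.9% of all genes tested that were called in this contrast, 5.09% higher and 6.85% lower. Markers of other cells moved in the same comparison: of 5 erythroid markers, 3 rose, namely Hbb-b1 (log2 fold change 4.70, limma adjusted p = 0.0259), Hba-a2 (3.61, 0.0482) and Alas2 (2.67, 0.0372), and of the CD8 T cell markers Cd3g fell (-0.90, 0.0399). Also called lower were 2 CD4 and regulatory T cell markers, 1 macrophage and monocyte marker and 1 dendritic cell marker. Called higher were 1 of 3 B cell markers tested and the 1 fibroblast and endothelium marker tested. The erythroid score, a mean of log2 values, was 3.496 in C2, 7.16 in A1 and 8.23 in A2, against 0.29 to 6.38 in WT libraries; its part in the rise of Gimap3 and Gimap6 was not tested apart from the other marker scores.

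Gimap9 did not pass the threshold. Its signal was 37.4, 40.1 and 48.2 in the cDKO libraries, against 17.2, 26.3 and 44.98 (lowest, median and highest) in WT libraries, 14 of which were below every cDKO library. The log2 difference was 0.66 ± 0.24 (adjusted p = 0.0763). Gimap5 averaged 29.3 ± 6.34 in cDKO and 37.4 ± 10.2 in WT libraries (log2 difference -0.31 ± 0.21, adjusted p = 0.401), and Gimap7 averaged 59.1 ± 19.4 in cDKO and 82.9 ± 38.4 in WT libraries (-0.39 ± 0.33, adjusted p = 0.525). Gimap1, Gimap4 and Gimap8 were within 1 SE of 0. The summed signal of all 8 members was 1034 ± 87.7 in cDKO and 834 ± 245 in WT libraries.

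Both fold changes were smaller against the WT libraries of the same column set. Within column set 3, Gimap6 averaged 306 ± 12.96 in cDKO and 218 ± 79.5 in WT libraries, and Gimap3 averaged 224 ± 12.2 in cDKO and 181 ± 53.1 in WT libraries. With the column set as a covariate the log2 fold change was 0.55 for Gimap6 (limma, adjusted p = 0.124) and 0.36 for Gimap3 (adjusted p = 0.340). With marker scores as covariates it was 0.37 for Gimap6 (adjusted p = 0.520) and 0.41 for Gimap3 (adjusted p = 0.494). With 1 cDKO library left out the fold changes stayed near those of all libraries, with a larger SE. Gimap3 was 0.69 ± 0.25 without C2, 0.75 ± 0.25 without A1 and 0.68 ± 0.25 without A2 (adjusted p = 0.0786, 0.0759 and 0.139). Gimap6 was 0.76 ± 0.23 without A1 and 0.70 ± 0.23 without A2 (adjusted p = 0.0513 and 0.0876). Of the CD3 genes, Cd3g was itself called lower in cDKO, while Cd3d (log2 difference -0.03) and Cd3e (-0.36) were not called. Whether their mean differs between genotypes by the share of T cells or by RNA per T cell cannot be told apart. Scaling to these genes may carry either. Scaling all libraries to their CD3 genes raised the median of all genes to 0.308 and called 956 genes higher and 184 lower in place of 624 and 839. Under it Gimap6 stood at 1.16 (limma, adjusted p = 0.00222), Gimap3 at 1.13 (0.00333) and Gimap9 at 1.08 (0.0126). Gimap9 was also called without the WT library A4 or B4 (adjusted p = 0.0394 and 0.0410).

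In Prdm1 cKO against WT libraries, Gimap7 fell and no other member was called. Gimap7 encodes a member that forms GTP-dependent dimers in its human form. Its signal was 22.5, 24.4 and 29.0 in the Prdm1 cKO libraries A5, A6 and A9, against 34.2, 81.1 and 184 (lowest, median and highest) in WT libraries. The groups did not overlap: all 3 Prdm1 cKO libraries were below all 16 WT libraries, and below every c-Maf cKO and cDKO library as well. The share of all genes without such overlap was not computed, so this separation has no background. The log2 fold change was -1.55 ± 0.33 (limma, adjusted p = 0.0140). The 1 of 8 members called stands beside 3.45% of all genes tested that were called in this contrast, 1.87% lower and 1.58% higher. In the same contrast 1 of 14 macrophage and monocyte markers was called higher, with a median log2 fold change of 2.52 over the 14. Of 6 CD4 and regulatory T cell markers, 1 was called lower.

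Gimap1 was the next lowest, at 55.95, 69.5 and 76.8 in the Prdm1 cKO libraries against 54.8, 108 and 168 in WT libraries, 13 of which were above all 3; the log2 difference was -0.58 ± 0.24 (limma, adjusted p = 0.154). The differences of Gimap4 (-0.37), Gimap5 (-0.28) and Gimap8 (-0.26) did not pass either, with adjusted p between 0.419 and 0.535. Gimap3, Gimap6 and Gimap9 were within 1 SE of 0. Within column set 1 the separation of Gimap7 held: it averaged 25.3 ± 3.37 in Prdm1 cKO and 58.9 ± 16.2 in the 7 WT libraries, whose lowest was 42.7. There the exact two-sided permutation p was 0.00833 (unadjusted), the smallest that 120 splits allow. Adjusted over the 8 members, the exact p of Gimap7 was 0.0667. A member that reaches the smallest p alone cannot pass this adjustment, so the missing call says little. A limma fit of these 10 libraries alone called it (log2 fold change -1.15 ± 0.21, adjusted p = 0.0356), whereas the fit of all 25 with the column set as a covariate did not (-1.15 ± 0.32, adjusted p = 0.0986). It was also not called with marker scores as covariates (-1.08, adjusted p = 0.311). Without A6 the fold change was -1.52 ± 0.41 and without A9 -1.65 ± 0.41, as large as with all 3 but with a larger SE (adjusted p = 0.0732 and 0.0603). Scaling all libraries to their CD3 genes left it called (-1.07, adjusted p = 0.00642), with the median of all genes at 0.369 and 521 genes higher and 58 lower in place of 194 and 229.

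In c-Maf cKO against WT libraries, no member was called, and 0 of 12251 genes (0%) were called in either direction by limma. All 8 log2 differences lay within 1 SE of 0, between -0.18 and 0.23, and 0 of 8 had an unadjusted p under 0.05. Gimap7 was 90.9, 106 and 72.0 in the c-Maf cKO libraries B10, B11 and C1, against 34.2, 81.1 and 184 in WT libraries. Gimap6 was 159, 242 and 155 in the same c-Maf cKO libraries, within the WT range. Within column set 2 the lowest exact p over the 8 members was 0.0571 (Gimap3, unadjusted), at 147 ± 16.3 in c-Maf cKO and 120 ± 10.6 in the 4 WT libraries.

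**Figure D2:**
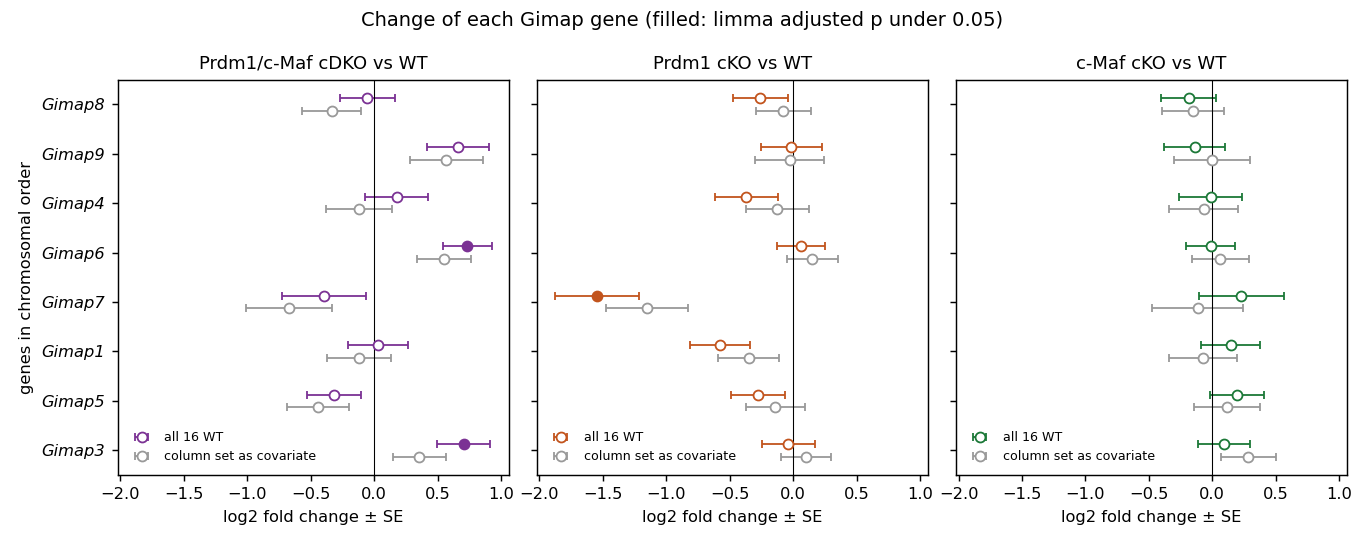
Log2 fold change of each Gimap gene (x axis, points with SE) in chromosomal order (y axis) for each knockout group against WT, from limma with all 16 WT libraries (coloured, filled where the adjusted p is under 0.05) and with the column set as covariate (grey). Gimap6 and Gimap3 are filled in the cDKO panel, at 0.73 and 0.71, Gimap7 is filled in the Prdm1 cKO panel, at -1.55, and nothing is filled in the c-Maf cKO panel or in grey.

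The knockout groups were also set against each other, although each lies in its own column set. Between cDKO and Prdm1 cKO no member was called, and the lowest adjusted p in limma was 0.209 for Gimap3. At an adjusted p under 0.05 limma called 0.392% of all genes, 0.0653% higher and 0.327% lower. An unadjusted p under 0.05 was reached by 4 of 8 members (Gimap3, Gimap6, Gimap7 and Gimap9). The share of all genes at that unadjusted threshold was not computed here, nor between cDKO and c-Maf cKO, so these counts have no background. Gimap7 averaged 59.1 ± 19.4 in cDKO and 25.3 ± 3.37 in Prdm1 cKO libraries, with no overlap (log2 difference 1.15 ± 0.43, adjusted p = 0.239). With the column set as a covariate this difference was 0.48 ± 0.47 (limma, adjusted p = 0.797). The share of all genes without overlap between these groups was not computed. Between cDKO and c-Maf cKO no member was called against 9.39% of all genes (3.78% higher and 5.61% lower), with 3 of 8 at an unadjusted p under 0.05; the lowest adjusted p was 0.0553 for Gimap6, at 306 ± 12.96 in cDKO and 185 ± 48.9 in c-Maf cKO libraries. Between Prdm1 cKO and c-Maf cKO, Gimap7 fell (25.3 ± 3.37 in Prdm1 cKO libraries and 89.7 ± 17.1 in c-Maf cKO libraries, log2 fold change -1.78 ± 0.43, adjusted p = 0.0442), against 1.53% of all genes called, 0.939% lower and 0.588% higher. That call was lost in 18 of 36 alternatives, the column set among them (log2 fold change -1.04, adjusted p = 0.801), and 14 of the 18 were the removal of single libraries, in which the fold change stayed between -1.92 and -1.65 with adjusted p between 0.0504 and 0.122. The departure of the double knockout from the sum of the single ones was not called for any member, against 0.00816% of all genes; its lowest adjusted p was 0.381, for Gimap6.

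Because the members moved unequally, the balance between them was compared within each library as the log2 ratio of 2 members, over all 28 pairs, a comparison chosen after the data were seen. A ratio within a library does not depend on how that library was scaled. The 28 pairs are not independent, since each member enters 7 of them, so 1 moved member can bring several called pairs. No share of called pairs among other genes was computed, so the counts and the absence of overlap have no background. In Prdm1 cKO against all WT libraries, 8 of 28 pairs were called (exact two-sided permutation test, adjusted over the 28): the 7 pairs with Gimap7, and Gimap1 with Gimap6. Gimap7 stood at 0.159, 0.104 and 0.138 of Gimap6 in Prdm1 cKO libraries, against 0.202 to 0.653 in WT libraries, with no overlap. As a log2 ratio, Gimap6 over Gimap7 was 2.93 ± 0.31 in Prdm1 cKO and 1.28 ± 0.50 in WT libraries (adjusted p = 0.00578). Against the 7 WT libraries of column set 1 alone, at 1.59 ± 0.42, 5 pairs were called (exact adjusted p = 0.0467 each), all of them with Gimap7.

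In cDKO against all WT libraries, 17 of 28 pairs were called, and 0 of 28 against the 5 WT libraries of column set 3, where the lowest adjusted p was 0.0714. With 56 splits the smallest p is 0.0179, which 7 pairs reached, and none can pass unless at least 11 pass together, so this limit bears on the count of 0. The difference in the log2 ratio of Gimap5 over Gimap6 was -1.06 against all WT libraries and -1.01 against those of column set 3. Gimap5 stood at 0.120, 0.0779 and 0.09 of Gimap6 in the cDKO libraries, against 0.128 to 0.251 in WT libraries. It stood at 0.157, 0.110 and 0.123 of Gimap3 in cDKO libraries, against 0.165 to 0.380 in WT libraries. Neither ratio overlapped between the groups. The log2 ratio of Gimap5 over Gimap6 was -3.41 ± 0.31 in cDKO and -2.35 ± 0.29 in WT libraries (exact p = 0.00103, adjusted 0.00867), and -2.40 ± 0.31 in the WT libraries of column set 3 (exact p = 0.0179, the smallest of 56 splits, adjusted 0.0714). For the 2 members that rose, Gimap3 over Gimap6 was -0.45 ± 0.05 on the log2 scale in cDKO and -0.42 ± 0.18 in WT libraries (exact p = 0.783, adjusted 0.812), and -0.25 ± 0.12 in the WT libraries of column set 3 (exact p = 0.0714). No pair was called in c-Maf cKO against all WT libraries. Against the 4 WT libraries of column set 2 the smallest p that 35 splits allow is 0.0286, so none can pass unless at least 17 of the 28 pass together, and the absence of calls there says little. Without A1 or A2 no pair was called in the cDKO comparison, and without A6 5 pairs were called in the Prdm1 cKO comparison. Leaving out a knockout library leaves fewer splits, so none can pass unless several pairs reach the smallest p together. How far this limit bears on the lost calls was not tested.

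**Figure D3:**
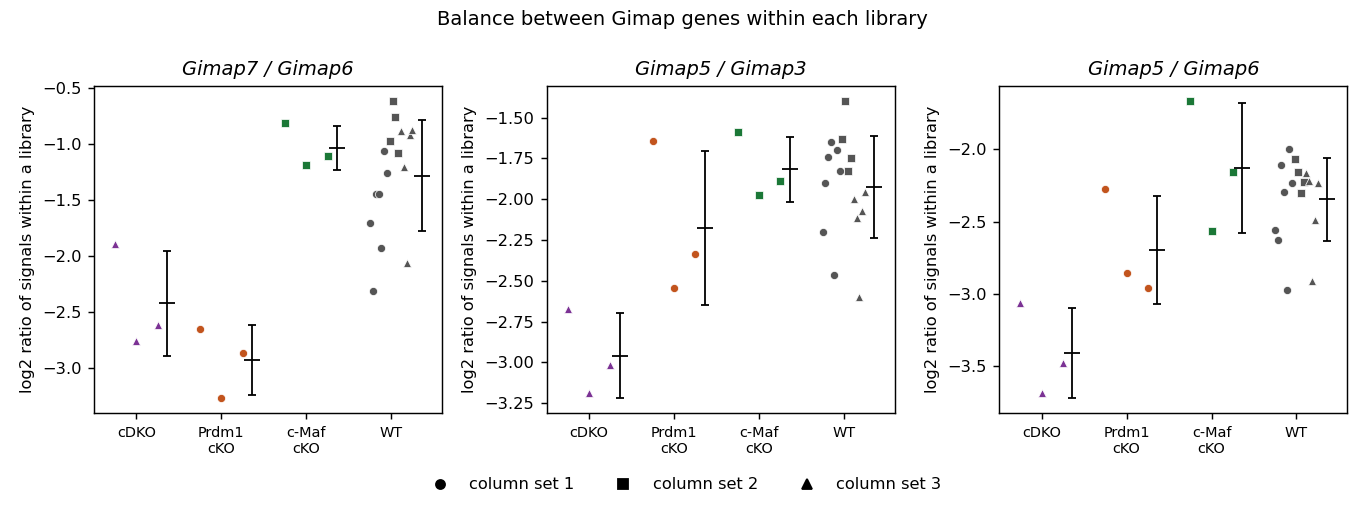
Log2 ratio of 2 Gimap genes within a library (y axis) by genotype (x axis); each point is a library, its shape gives the column set, and the bar is the mean with its SD. Gimap7 over Gimap6 is below all WT libraries in the 3 Prdm1 cKO libraries, and Gimap5 over Gimap3 and over Gimap6 are below all WT libraries in the 3 cDKO libraries.

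As shares of the summed Gimap signal, Gimap7 made up 5.65% ± 1.41 in cDKO libraries, 3.83% ± 0.61 in Prdm1 cKO libraries and 10.7% ± 0.43 in c-Maf cKO libraries, against 9.61% ± 2.22 in WT libraries (SD). Gimap5 made up 2.81% ± 0.38 in cDKO libraries, 4.54% ± 1.07 in Prdm1 cKO libraries and 5.06% ± 0.998 in c-Maf cKO libraries, against 4.51% ± 0.52 in WT libraries. Reads of Gimap3 and Gimap5 could be split by the authors' counting, since their GENCODE M21 transcripts share 335 31-base words, 13.2% of those of Gimap3 and 8.02% of those of Gimap5. No other pair of the 8 shared any, and Gimap1 shared 5.43% of its words with the overlapping model Gm28053.

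Across the 16 WT libraries the members went up and down together. Pearson's r over the 28 pairs ran from 0.41 to 0.91 with a median of 0.72, and Spearman's rho from 0.40 to 0.88 with a median of 0.71. By permutation tests of 100000 resamples, adjusted over the 28 pairs, 27 pairs passed by r and 26 by rho. The highest r were those of Gimap4 with Gimap7 (0.91, rho 0.81, adjusted p = 0.00011 and 0.00135) and of Gimap4 with Gimap5 (0.90, rho 0.88, adjusted p = 9e-05 and 0.00056), and the lowest that of Gimap7 with Gimap9 (0.41, rho 0.40, adjusted p = 0.114 and 0.122). With the 2 libraries farthest from the median of the x gene left out, r ran from 0.06 to 0.84. Centred on the column sets, r ran from 0.54 to 0.92; within the 7 WT libraries of set 1 it ran from -0.03 to 0.87. Without the WT library B4, which held the highest signal of 7 of the 8 members, 16 pairs passed, and with the libraries scaled to their CD3 genes 13 passed.

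**Figure D4:**
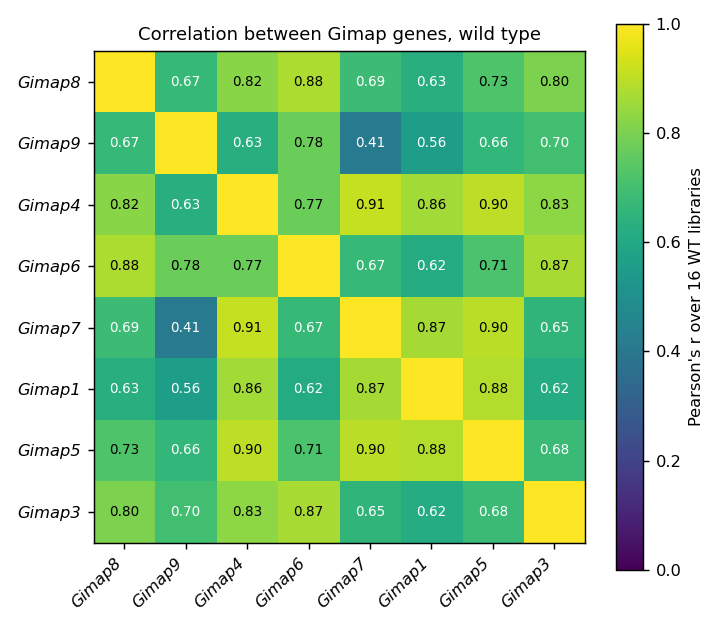
Pearson's r between each pair of Gimap genes over the 16 WT libraries (colour and number, scale from 0 to 1; the diagonal is each gene with itself), with genes in chromosomal order on both axes. Values run from 0.41 for Gimap7 with Gimap9 to 0.91 for Gimap4 with Gimap7.

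The signal of the CD3 genes, a measure of T cell content, was set beside each member; differences between members in this relation were not tested. Over 24 relations tested together, the mean of the CD3 genes had r = 0.90 with Gimap1 (rho 0.77), 0.90 with Gimap7 (rho 0.91), 0.89 with Gimap5 (rho 0.85) and 0.86 with Gimap4 (rho 0.80), each at a permutation p adjusted to 6e-05 for r and at most 0.00528 for rho. Gimap8 also passed (r = 0.59, rho 0.76, adjusted permutation p = 0.0479 and 0.00557). With Gimap3 (r = 0.49, rho 0.39), Gimap6 (0.52, 0.54) and Gimap9 (0.45, 0.46) it did not pass (adjusted p between 0.0629 and 0.179). Centred on the column sets, r with the CD3 genes was 0.74 for Gimap3, 0.66 for Gimap8, 0.61 for Gimap6 and 0.60 for Gimap9, and between 0.89 and 0.95 for Gimap1, Gimap4, Gimap5 and Gimap7. Within set 1 it ran from 0.25 (Gimap8) to 0.98 (Gimap1), with Gimap6 at 0.26. Leaving out the 2 farthest libraries left r at 0.83 for Gimap1, 0.90 for Gimap7, 0.82 for Gimap5 and 0.85 for Gimap4. The macrophage and monocyte score ran the other way, at r = -0.66 with Gimap4 (rho -0.74, adjusted permutation p = 0.0270 and 0.00572; -0.61 without the 2 farthest) and -0.62 with Gimap7 (rho -0.59, adjusted p = 0.0408 and 0.0415; -0.61), and within set 1 at -0.86 and -0.96. In the Prdm1 cKO libraries, where Gimap7 fell, the CD3 mean lay in the lower part of the WT range and the macrophage marker sum reached above it; their part in the fall of Gimap7 was not tested beyond the fit with marker scores and the scaling to CD3.

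Prdm1 signal itself varied among WT libraries, between 6.45 and 24.9. It had r = 0.60 with Gimap7 (rho 0.63, adjusted permutation p = 0.0436 and 0.0340) and r = 0.62 with Gimap1 (rho 0.54, adjusted p = 0.0408 and 0.0629). These values rest in part on the 2 libraries farthest from the median, without which r was 0.48 for Gimap7 and 0.42 for Gimap1. Both members also had r = 0.90 with the CD3 mean over the same libraries. The part of T cell content in their relation with Prdm1 was not tested. Within column set 1, r was 0.78 for Gimap7 (exact p = 0.0510) and 0.63 for Gimap1 (exact p = 0.132). The remaining 6 members had r with Prdm1 between -0.02 and 0.51, none of which passed. With values centred on the column sets, r with Prdm1 was 0.65 for Gimap4, 0.63 for Gimap1, 0.61 for Gimap7 and 0.58 for Gimap5. It lay between 0.13 and 0.37 for Gimap3, Gimap6, Gimap8 and Gimap9. These centred values were not tested.

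By the rule of the highest Pearson r to the mean log2 signal of the 8 members over the 16 WT libraries, the 6 genes outside the family and the lists were Hsd11b1 (0.96), Ptprc (0.95), which encodes CD45, Ms4a4b (0.95), Itgal (0.93), which encodes the integrin chain CD11a, Sept1 (0.92) and Slamf7 (0.92). Of the listed genes, Cd8b1, the CD8 beta chain, ranked first among all 12251 at 0.98. These points share library and T cell content. None of the 6 was called in any knockout group against WT: Hsd11b1 had log2 differences of -0.76 in cDKO and -0.87 in Prdm1 cKO (limma, adjusted p = 0.243 and 0.217), and Ptprc had 0.03 in cDKO and 0.01 in Prdm1 cKO (adjusted p = 0.931 and 0.989).

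Of the 6 genes that flank the cluster, 3 on each side, 2 have a row in the table. On the side of Gimap8, Zfp775 averaged 4.47 for cDKO, 3.09 for Prdm1 cKO and 2.06 for c-Maf cKO, against 2.59 in WT libraries, and AI854703 averaged 1.99 for cDKO, 0.98 for Prdm1 cKO and 0.59 for c-Maf cKO, against 1.02 in WT libraries. The third neighbour there has no row in the table. Neither of the measured ones was called in any of the 3 comparisons (limma, lowest adjusted p = 0.197, for AI854703 in cDKO). The 3 annotated neighbours on the side of Gimap3 have no row in the table.

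The Gimap genes were set beside genes of naive T cells, quiescence and lymph node homing. This list was drawn up with earlier results of these libraries known, so its counts cannot serve as a test. Of 26 such genes, 19 rose and 0 fell in cDKO (median log2 fold change 1.39, against 0.10 for the 8 Gimap genes and -0.03 for all genes; 5.09% of all genes were called higher), and 6 rose and 0 fell in Prdm1 cKO (median 0.85, against -0.27 for the Gimap genes and -0.02 for all; 1.58% of all genes were called higher). In c-Maf cKO none was called (median 0.09, against 0.04 for the Gimap genes). Txnip, a thioredoxin inhibitor of resting cells, averaged 97.98 in cDKO and 27.7 in WT libraries (log2 fold change 1.75 ± 0.24, limma adjusted p = 7.91e-05). Il7r, the IL-7 receptor chain that sustains resting T cells, averaged 97.0 in cDKO and 22.5 in WT libraries (2.19 ± 0.34). Satb1, a chromatin organiser of T cells, averaged 42.7 in cDKO and 9.52 in WT libraries (2.07 ± 0.29), and Dapl1, a gene of naive and memory CD8 T cells, 39.1 in cDKO and 10.7 in WT libraries (1.84 ± 0.29). Of these 4, Dapl1 and Il7r were also called in Prdm1 cKO, at 1.63 and 1.41.

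Reported partners and the survival pathway of Gimap proteins, a list of 15 genes of the Bcl2 and Gabarap families with Gsk3a, Gsk3b and Ctnnb1, had 1 gene that rose and 4 that fell in cDKO, where 5.09% of all genes were called higher and 6.85% lower (median log2 fold change -0.15), and none called in Prdm1 cKO or c-Maf cKO (medians 0.08 and 0.01), where 3.45% and 0% of all genes were called. Bcl2, which protects cells from death, rose to 54.8 ± 13.2 in cDKO, against 19.8 ± 5.71 in WT libraries (1.45 ± 0.25, adjusted p = 0.000465). The 4 that fell were Bak1 (-0.79) and Bax (-0.32), which open the mitochondrial outer membrane, Bid (-0.78), which activates them, and Bcl2l1 (-0.69), which encodes the protective Bcl-xL; Bid was named for completeness of the count after its value was seen. In Prdm1 cKO, Bcl2 stood at 35.4 ± 15.3 (0.77 ± 0.25, adjusted p = 0.0775). Gabarapl2, the autophagy protein reported to bind Gimap6, was within 1 SE of 0 in cDKO.

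The 19 genes of other immune GTPase families and their regulators (Gbp, Irg, Mx, Rac2, Rhoh, Arl4c and Rasgrp1) had 3 called in cDKO (2 higher, 1 lower, median log2 fold change -0.05), 1 in Prdm1 cKO (lower, median -0.21) and none in c-Maf cKO (median 0.19). With 11.9% of all genes called in cDKO and 3.45% in Prdm1 cKO, these counts are near the background. In cDKO, Gbp9 (0.80) and Arl4c (0.96) rose and Gbp3 (-0.95) fell; Igtp stood at 51.6 in cDKO and 36.9 in WT libraries (0.52 ± 0.26, adjusted p = 0.227). In Prdm1 cKO, Gbp10 fell to 0.677, against 4.70 in WT libraries (-1.84 ± 0.36, adjusted p = 0.00617), a gene named after its value was seen and one whose reads may be shared with close relatives in the Gbp family. These 3 lists were drawn up with earlier results of these libraries known.

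**Figure D5:**
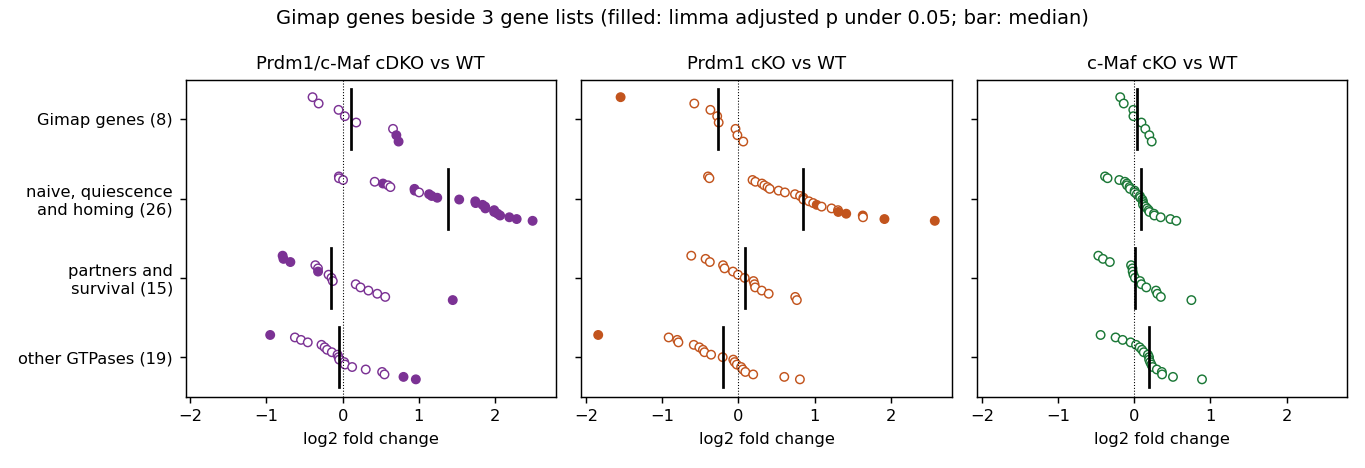
Log2 fold change (x axis) of each gene of the Gimap family and of 3 lists (rows, number of genes in brackets) in cDKO, Prdm1 cKO and c-Maf cKO against WT; filled points have a limma adjusted p under 0.05 and the bar is the list's median. The naive, quiescence and homing genes centre at 1.39 in cDKO and 0.85 in Prdm1 cKO, the Gimap genes at 0.10 and -0.27.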

How the data were processed

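RNA of tumour-infiltrating CD8+ T cells was measured in 25 libraries of 4 genotypes. The authors deposited 1 table of normalised signal per gene symbol; TopHat, RSEM, DESeq and the build mm9 are named in the submitters' processing notes, without versions, order or filters. The scale is not stated and the values are not counts, so the depth is unknown and no counting interval is given; column totals run from 389650 to 475956, and 12749 to 15161 genes are above 0. Columns were assigned to genotypes by their names, which carry no replicate number.

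Values were analysed as log2(value + 1), which understates changes of low values. Genes at 1 or more in 3 libraries were fitted with limma 3.58.1 in R 4.3.3 (trend, robust; 4 group means, no covariate), with Benjamini-Hochberg adjustment over 12251 genes and a threshold of 0.05. Fits and tests were checked on simulated data. Relations within WT used permutation tests written with NumPy 2.4.6, with ranks and adjustment from SciPy 1.17.1. Their p-values are given for single members, not for the mean over members, a departure from the plan. Alternatives were 2 other pseudocounts, 2 filters, 2 scalings, 3 kinds of covariate, limma without trend and robust fitting, the WT libraries of the same column set, and each library left out. The members, the gene lists and the marker lists were chosen with earlier results of these data known. Named genes are the 8 members, Prdm1 and Maf, up to 4 genes per list with the smallest adjusted p in cDKO against WT and members moving against their list, 6 genes most like the members' mean, and 3 flanking genes on each side. Marker lists cover CD8 T, CD4 and regulatory T, B, NK, macrophage and monocyte, dendritic, neutrophil, erythroid and melanoma cells, and fibroblasts and endothelium.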

Additional observations from a re-analysis of the deposited data

How the results depend on the processing

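The number of Gimap genes called higher in cDKO against WT, 2, was 1 with no filter on low values, 4 after scaling to the CD3 genes, and 0 with the column set or marker scores as covariates or with the WT libraries of the same column set only; with 1 library left out it ranged from 0 to 3. The 1 called lower in Prdm1 cKO against WT was 0 with the column set, the letter of the library code or marker scores as covariates, and 0 to 1 with 1 library left out. The 1 called lower between Prdm1 cKO and c-Maf cKO was 0 with no filter and with each of these 3 covariates (0 to 1 with 1 library left out). Between cDKO and c-Maf cKO, 0 called higher became 1 with a minimum of 10, with median-of-ratios scaling and without the WT libraries B3 and B4 (an alternative chosen after seeing the data), and 4 after scaling to CD3 (0 to 1 with 1 library left out). Scaling to CD3 moved the median log2 difference of all genes to 0.308 (cDKO), 0.369 (Prdm1 cKO) and -0.179 (c-Maf cKO); under it the log2 difference changed sign for Gimap5 (0.10) and Gimap7 (0.03) in cDKO and for Gimap4 (0.12), Gimap5 (0.19) and Gimap8 (0.19) in Prdm1 cKO, and 13 of 28 WT pairs passed in place of 27 (16 to 28 with 1 library left out). Called ratio pairs, 17 in cDKO and 8 in Prdm1 cKO, were 0 and 5 with the WT libraries of the same column set, where none can pass unless at least 11 and 5 pass together, and 0 to 19 and 5 to 11 with 1 library left out. Where the library left out is a knockout, several pairs must likewise pass together for any to pass. Where a value moved, the cause was not tested. Gimap3 stayed called in 30, Gimap6 in 32 and Gimap7 in Prdm1 cKO in 32 of 37 alternatives. No paired analysis was possible because the columns carry no replicate number. The depth is unknown, so no detection limit is given.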
